A study of Mus musculus with 8 samples.

Results

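The clustered protocadherin genes were taken as the protein-coding gene entries of GENCODE vM21 on mouse chromosome 18 whose symbols start with Pcdha, Pcdhb or Pcdhg. This gave 57 entries with 56 symbols among 20807 protein-coding autosomal genes, Pcdha11 being listed as 2 entries. All 57 lay on the plus strand within chr18:36930184-37841873 (mm10), a span of 911.69 kb. They overlapped 10 of the 23972 bins of 100 kb that carried a compartment score in every library. Each of the 10 bins held the start of at least 1 member gene.

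Clustered protocadherins are cadherin-like proteins of the cell surface through which neurons recognise their own and other neurites. A neuron chooses a small set of promoters from the alpha, beta and gamma arrays, largely at random, and CTCF and cohesin bring the chosen promoters to distant enhancers. In neurons the methyltransferase SETDB1, which places H3K9 methylation, is known to control expression and folding of this locus. The Hi-C scores analysed here carry no information on expression of these genes.

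Hi-C records contacts between pairs of genomic loci in fixed nuclei. It was carried out in mouse embryonic stem cells (mESCs) that lacked H3K9 methyltransferases, were treated with an inhibitor of them, or both, and 1 score set from each of 8 groups was used. Line #33-6, a Setdb1 conditional knockout, supplied Setdb1 WT (no treatment), Setdb1 WT + UNC (UNC0642, an inhibitor of G9a and GLP, at 2 µM for 3 days), Setdb1 KO (4-OHT, which triggers the deletion, at 800 nM for 5 days) and Setdb1 KO + UNC (4-OHT at 800 nM for 2 days, then UNC0642 at 2 µM for 3 days). Line ADF1-26 supplied Suv39h WT, and line ADF157, which lacks Suv39h1 and Suv39h2, supplied Suv39h DKO, each without treatment and with UNC0642 at 2 µM for 3 days. Suv39h WT and Suv39h DKO are separate lines, so line and genotype cannot be told apart. SETDB1 loss and exposure to 4-OHT cannot be told apart either, since no WT library received 4-OHT, and the scores do not show whether Setdb1 was deleted.

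The compartment score is the first eigenvector of the contact map of a chromosome. It has no unit, and positive values mark the A compartment (active chromatin) and negative values the B compartment (inactive chromatin). The scores of chromosome 18 averaged 0 in each library, so a bin could rise only relative to other bins of the chromosome. The sequencing depth behind each score is unknown from these values. With 1 library per group, a difference between 2 libraries had no replicate check. The 6 pluripotency genes Pou5f1, Sox2, Nanog, Klf4, Zfp42 and Esrrb were A in all 8 libraries by the mean score of the bins each overlaps. Setdb1 WT + UNC stood apart from the other libraries of its line. Its chromosome 18 profile correlated with Setdb1 WT at 0.968, against 0.987 for Setdb1 KO and 0.986 for Setdb1 KO + UNC. With UNC0642, 3.51% of all bins were higher and 4.62% lower by at least 0.01 in Setdb1 WT, against 0.755% and 0.934% in Setdb1 KO.

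The 3 arrays followed each other in the order alpha, beta, gamma. The alpha array held 14 entries of 44155 to 257478 bp over chr18:36930184-37187661, each joining its own variable exon to shared constant exons, and fell in 3 bins. The beta array held 22 short genes of 2588 to 8695 bp over chr18:37264938-37524479, 20 of them with 1 coding exon, and fell in 4 bins. The gamma array held 21 genes of 22361 to 180081 bp over chr18:37661793-37841873, each with 4 coding exons, and fell in 3 bins. Bins are numbered from 1 to 10, starting at chr18:36900001-37000000, which holds the starts of Pcdha1 to Pcdha9. The 20 bins within 1 Mb on either side served as flanks.

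The locus was divided between the arrays in every library. The alpha and beta bins lay near the boundary of the A and B compartments, while the gamma bins and the flanks lay in A. The mean score of the 3 alpha bins ranged from −0.00113 to 0.0146 over the 8 libraries and that of the 4 beta bins from 0.000358 to 0.0140. The 3 gamma bins averaged 0.0522 to 0.0600 and the 20 flank bins 0.0555 to 0.0632. Gamma and flanks thus overlapped in level, and both were above alpha and beta in all 8 libraries. Relative to the flank mean of the same library, alpha lay between −0.0610 and −0.0421, beta between −0.0597 and −0.0426, and gamma between −0.0100 and 0.00366. Bins are not replicates, so no test was made of these levels. Alpha and beta were low only relative to their neighbourhood: between 51.8% and 69.8% of chromosome 18 bins scored below each of these 7 bins in the mean of 8 libraries. For the gamma bins, the share scoring below was 86.3% to 97.0%.

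**Figure D1:**
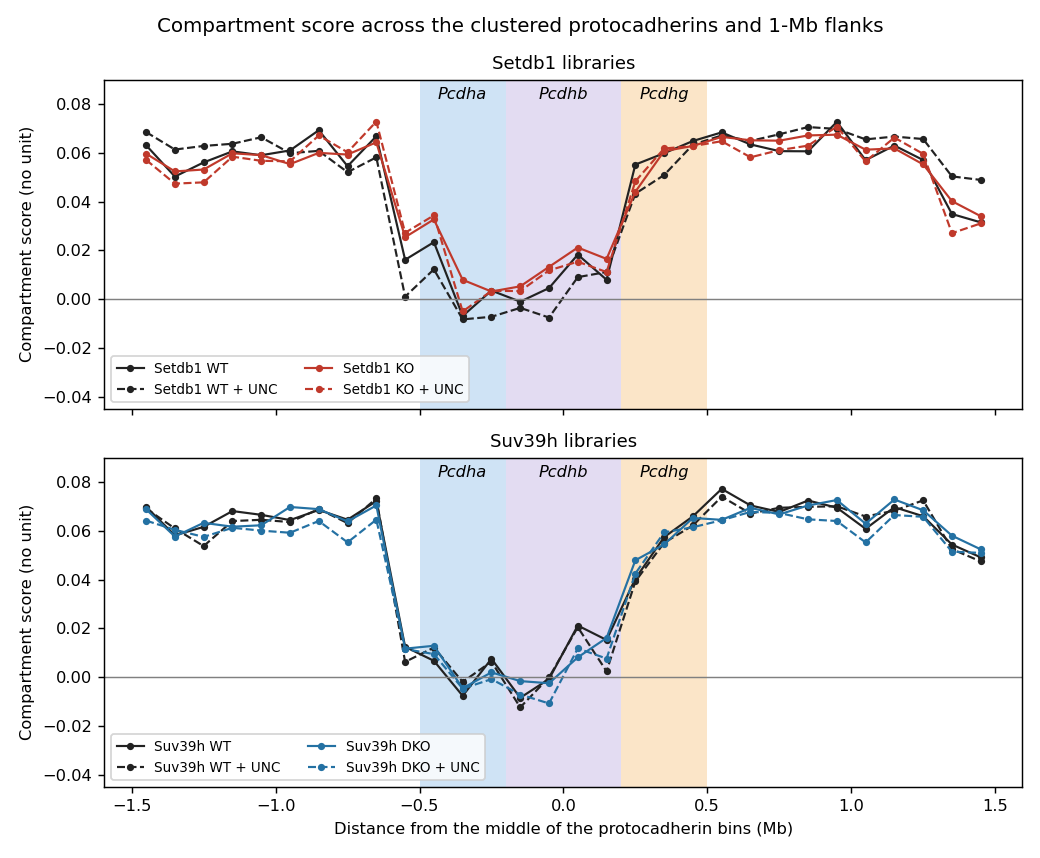
Compartment score (vertical axis, no unit) of the 10 protocadherin bins and the 20 flank bins against distance from the middle of the protocadherin bins in Mb, with 1 line per library, Setdb1 libraries above and Suv39h libraries below. Alpha and beta bins form a trough near 0 in all 8 libraries, and the gamma bins rise to the level of the flanks.

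Of the 56 pairs of an alpha or beta bin with a library, 20 were negative and hence B. Over all of chromosome 18, 42.99% to 44.93% of bins were A in a library, so B was the more common class there. The gamma bins were A in all 8 libraries, as were all 160 pairs of a flank bin with a library. The B calls depended on where 0 was set. If the deposited scores are eigenvectors from which the chromosome mean was subtracted, that mean was 0.00444 to 0.00678 on chromosome 18, a size within the range of the alpha and beta means. Adding it back left 10 of 56 pairs in B, and subtracting it once more gave 28. Differences within a library, such as array minus flanks, do not depend on this step.

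**Figure D2:**
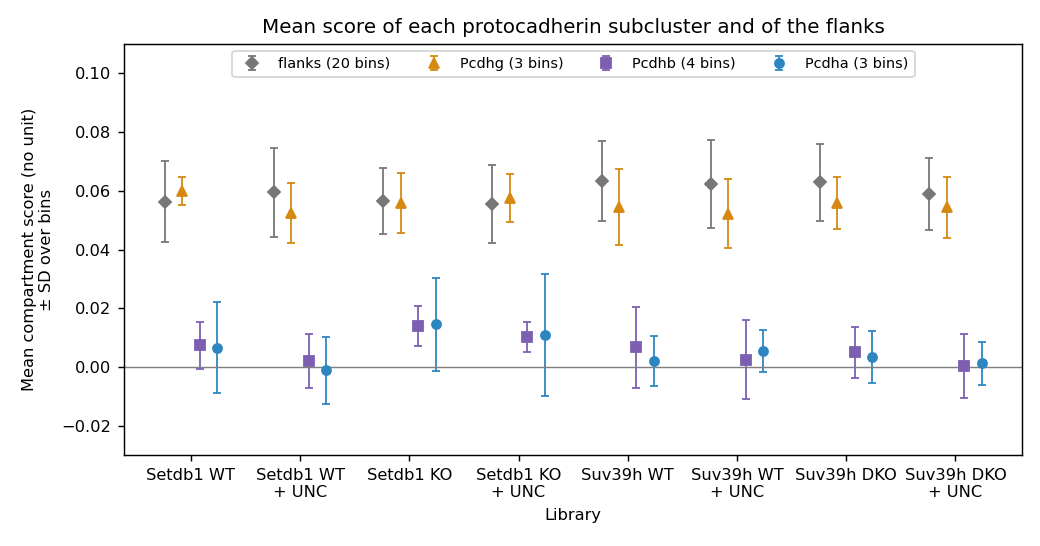
Mean compartment score (vertical axis, no unit) of the Pcdha, Pcdhb and Pcdhg bins and of the flanks in each of the 8 libraries (horizontal axis), with bars for the SD over bins. Pcdhg and flank means lie between 0.0522 and 0.0632, and Pcdha and Pcdhb means between −0.00113 and 0.0146.

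Within the alpha array the bin of Pcdha1 to Pcdha9 (bin 1) was the highest in the mean of 8 libraries and the most variable. In the Setdb1 line it scored 0.0233 in untreated WT, 0.0122 in UNC0642-treated WT, 0.0327 in untreated KO and 0.0343 in UNC0642-treated KO. In the Suv39h lines it scored 0.00669 in untreated WT, 0.0121 in treated WT, 0.0129 in untreated DKO and 0.00944 in treated DKO. Both Setdb1 KO libraries were thus above the other 6, and the 4 Suv39h libraries lay close together. Bin 2 (chr18:37000001-37100000) holds the starts of Pcdha11, Pcdha12 and Pcdhac1, the last a C-type gene, a class that neurons do not choose at random. It was B in 7 libraries, from −0.00833 to −0.00198, and A only in Setdb1 KO at 0.00790. Bin 3 (chr18:37100001-37200000) holds the start of the C-type gene Pcdhac2 and the shared end of the alpha genes, and ran from −0.00726 in Setdb1 WT + UNC to 0.00751 in Suv39h WT.

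The beta genes lack shared constant exons, and their last 2 bins (6 and 7) scored above their first 2 (4 and 5) in the mean of 8 libraries. Bin 4 (chr18:37200001-37300000; Pcdhb1 and Pcdhb2) was A only in Setdb1 KO at 0.00523 and Setdb1 KO + UNC at 0.00331, and otherwise ran from −0.0124 to −0.00106. Bin 5 (chr18:37300001-37400000; Pcdhb3 to Pcdhb8) scored 0.00452 in untreated and −0.00757 in UNC0642-treated Setdb1 WT, and 0.0132 and 0.0118 in the Setdb1 KO libraries. It scored −0.000790 in untreated and −0.000131 in treated Suv39h WT, and −0.00252 and −0.0108 in the Suv39h DKO libraries. The Setdb1 KO libraries were again the highest, and the 4 Suv39h libraries were all B. Bin 6 (chr18:37400001-37500000; Pcdhb9 to Pcdhb19) was A throughout, from 0.00812 in Suv39h DKO to 0.0212 in Suv39h WT. Bin 7 (chr18:37500001-37600000; Pcdhb20 to Pcdhb22) was also A throughout, from 0.00236 in Suv39h WT + UNC to 0.0165 in Setdb1 KO.

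Scores stepped up between the last beta bin and the first gamma bin in each library, by 0.0252 in Suv39h WT to 0.0473 in Setdb1 WT. Counting this step, 4 to 30 of the 876 steps between adjacent bins of chromosome 18 were as large and upward in the same library. Bin 8 (chr18:37600001-37700000) holds the starts of 7 gamma genes from Pcdhga1 to Pcdhga5, and also of Slc25a2, a mitochondrial carrier, and Taf7, a subunit of the general transcription factor TFIID. It ranged from 0.0393 in Suv39h WT + UNC to 0.0552 in Setdb1 WT. Bin 9 (chr18:37700001-37800000), with 11 A-type and B-type genes from Pcdhga6 to Pcdhga12, ranged from 0.0509 to 0.0618. Bin 10 (chr18:37800001-37900000), with the C-type genes Pcdhgc3, Pcdhgc4 and Pcdhgc5, varied least of the 10 bins, from 0.0615 to 0.0660. The bin beyond it, chr18:37900001-38000000, with Diaph1, Hdac3, Rell2, Fchsd1 and Arap3, was at 0.0644 to 0.0772.

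On the other side the trough began 1 bin ahead of the genes. The bin chr18:36800001-36900000, in which no protein-coding gene starts, scored 0.0161 in untreated and 0.00100 in UNC0642-treated Setdb1 WT, and 0.0254 and 0.0272 in the Setdb1 KO libraries. It scored 0.0124 in untreated and 0.00624 in treated Suv39h WT, and 0.0117 and 0.0115 in the Suv39h DKO libraries. It thus had the level of bin 1, with the Setdb1 KO libraries highest, although it was counted with the flanks. The bin ahead of it, with 9 genes including Cd14 and Zmat2, was at 0.0582 to 0.0733, and the fall between the 2 bins was 0.0389 to 0.0670 over libraries. Counting this fall, 2 to 7 of the 876 steps on the chromosome were as large and downward.

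The order of the bins along the locus was shared by the libraries, with Pearson r from 0.919 to 0.995 between pairs of libraries over the 10 bins. It also followed base composition. GC content averaged 40.0% in alpha, 40.3% in beta, 44.1% in gamma and 45.8% in the flanks, against a chromosome 18 median of 41.1%. Over the 10 member bins GC content and the mean score of 8 libraries had a Pearson r of 0.980, over the 30 bins of the window 0.773, and over 876 bins of chromosome 18 0.790. These are descriptions across neighbouring bins, which are not independent. The part of GC content in the differences between arrays was not tested.

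**Figure D3:**
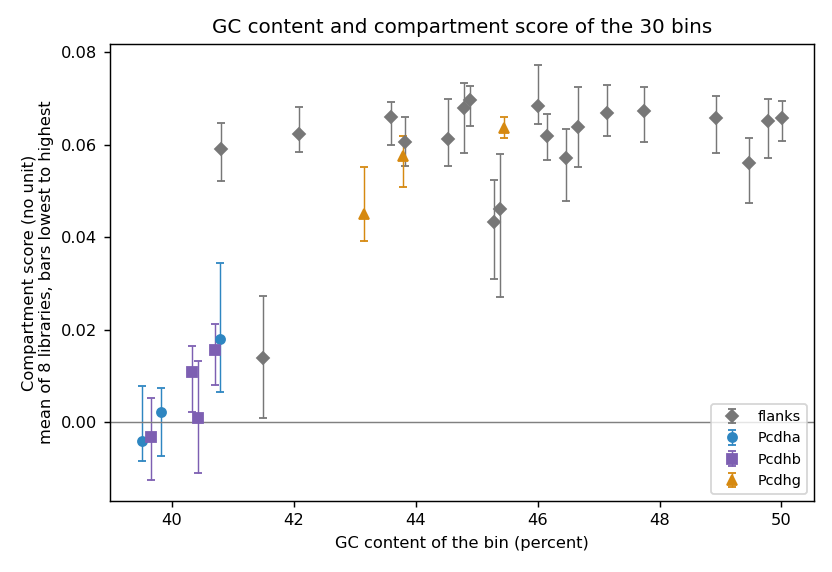
Compartment score (vertical axis, mean of 8 libraries, bars from the lowest to the highest library) against GC content in percent for the 10 protocadherin bins and 20 flank bins. The 7 Pcdha and Pcdhb bins lie at the low end of both axes, and the 3 Pcdhg bins have more GC and scores near those of the flanks.

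The question put by the Setdb1 libraries is whether removal of SETDB1 changes the compartment of the locus. With SETDB1 loss, the alpha and beta means were higher by a small amount in both pairs, and no bin passed the test. The means of Setdb1 WT and Setdb1 KO were 0.00664 and 0.0146 in alpha, 0.00741 and 0.0140 in beta, and 0.0600 and 0.0559 in gamma. Under UNC0642 the corresponding means were −0.00113 and 0.0109 in alpha, 0.00223 and 0.0104 in beta, and 0.0525 and 0.0576 in gamma. The alpha and beta means were thus higher in the knockout in both pairs, whereas the gamma mean was lower without and higher with UNC0642. The difference between arrays was not tested.

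Without UNC0642, 1 of 10 member bins was higher by at least 0.01 (1.40% of all bins) and 1 was lower by as much (0.880%). Bin 2 was the higher one, by 0.0148, and bin 8 differed by −0.0112. Bins 2 and 4 crossed from B into A (1.71% of all bins) and 0 bins crossed the other way (1.51%). With UNC0642, 4 member bins were higher by at least 0.01 (7.16% of all bins) and 0 lower (5.79%). These were bin 1 by 0.0221, bin 5 by 0.0193, bin 9 by 0.0109 and bin 3 by 0.0106. Bins 3, 4 and 5 crossed from B into A (3.14%) and 0 the other way (3.20%). With the implied chromosome mean added, 1 bin crossed into A without and 3 with UNC0642, and with it subtracted once more 2 and 1 did. No member bin was higher by 0.01 in both pairs (0.567% of all bins were) or lower by as much in both (0.129%). Both Setdb1 KO libraries were above both Setdb1 WT libraries in bins 1, 2, 4, 5 and 9, that is 5 of 10 member bins against 19.0% of all bins. They were below in bin 10 only (21.8% of all bins). Taken pair by pair, 6 members were higher in both pairs (25.0% of all bins) and 1 lower in both (29.4%).

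Changes per bin were tested with limma, a linear model with moderated variances fitted over all 23972 bins, with p adjusted by the Benjamini-Hochberg method. Each fitted change averages the pair without and the pair with UNC0642. For SETDB1 loss 0 of 10 member bins, and 0 of all bins (0.00%), had an adjusted p under 0.05. The lowest adjusted p among the members was 0.300. At an unadjusted p under 0.05, 4 member bins had a positive change (5.16% of all bins) and 0 a negative one (3.94%). These were bins 1, 2, 4 and 5, in the alpha and beta arrays. The fitted change was 0.0157 (95% confidence interval 0.00740 to 0.0241, limma unadjusted p 0.00176) in bin 1, the bin of Pcdha1 to Pcdha9. It was 0.0140 (0.00642 to 0.0216, limma unadjusted p 0.00206) in bin 5, the bin of Pcdhb3 to Pcdhb8. In the bin just ahead of the alpha genes it was 0.0177 (0.00913 to 0.0264, limma adjusted p 0.274), so the higher scores were not limited to bins with protocadherin genes. Over the members 8 changes were positive (46.7% of all bins) and 2 negative. The negative ones were in bins 8 and 10, with −0.00305 in bin 8 the lowest (limma adjusted p 0.878). The median over the 10 members was 0.00550, beside −0.000293 over all bins and −0.00245 over the flanks. Without Setdb1 WT the median was 0.00863, and without Setdb1 WT + UNC 0.00401.

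**Figure D4:**
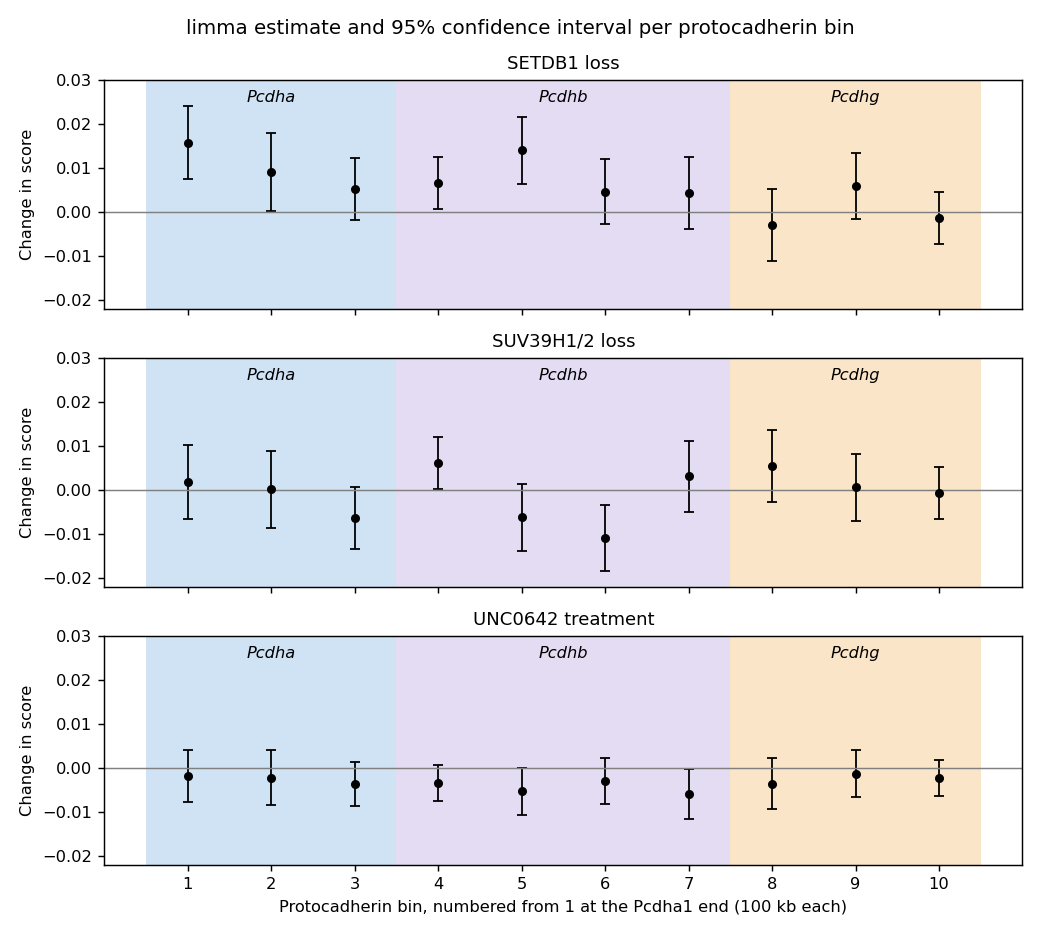
Fitted change in compartment score (vertical axis, no unit) of each of the 10 protocadherin bins (horizontal axis) with SETDB1 loss, SUV39H1/2 loss and UNC0642, with bars for the 95% confidence interval of the limma fit. Intervals lie above 0 in bins 1, 2, 4 and 5 for SETDB1 loss and in bin 4 for SUV39H1/2 loss. They lie below 0 in bin 6 for SUV39H1/2 loss and in bin 7 for UNC0642. In each of the 3 panels 0 of 10 bins had an adjusted p under 0.05.

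These values depended on single libraries. Without Setdb1 WT the SETDB1 comparison called 2 member bins, bin 1 with a change of 0.0219 (limma adjusted p 0.0259) and bin 5 with 0.0186 (limma adjusted p 0.0491), and 1.43% of all bins upward. That fit sets both Setdb1 KO libraries against Setdb1 WT + UNC alone, the library that stood apart, and assumes that it varies like the others. Without Setdb1 WT + UNC the change was 0.00955 in bin 1 and 0.00949 in bin 5, and the lowest adjusted p of the members was 1.00. Without Setdb1 KO + UNC it was 0.0134 and 0.0115, with an adjusted p of 1.00 for both. Without Setdb1 KO it was 0.0181 and 0.0166, with a lowest adjusted p of 0.354, and only these 2 members had an unadjusted p under 0.05. Bin 2 was then at 0.00187, beside 0.00904 with all libraries and 0.0162 without Setdb1 KO + UNC. The direction in bins 1 and 5 was upward in each of these fits.

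Measured against the flanks, the 10 bins together lay at −0.0334 in Setdb1 WT and −0.0299 in Setdb1 KO, a change of 0.00348. Under UNC0642 they lay at −0.0433 and −0.0308, a change of 0.0125. With flanks of 2 Mb the untreated levels were −0.0178 and −0.0134, and against all other bins of the chromosome they were positive, at 0.0232 and 0.0270. These are differences of 1 library from 1. The fit of background and UNC0642 left an SD of 0.00499 for a difference of 2 libraries, with 3 degrees of freedom. That SD holds only how the UNC0642 change differed between the 4 backgrounds, the Setdb1 pairs included, and is not a spread between replicates. In the UNC0642-treated pair the flank mean itself differed by −0.00411, and with flanks of 0.5 Mb the change was 0.00541. Setdb1 KO + UNC against untreated Setdb1 WT, which combines both perturbations, changed by 0.00258, with 1 member bin higher by at least 0.01 (1.46% of all bins) and 0 lower (1.18%). These contrasts share libraries and are not independent.

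Loss of SUV39H1 and SUV39H2, which methylate H3K9 mainly at pericentromeric satellites, left the mean of the locus nearly where it was. The 10-bin mean was 0.0197 in Suv39h WT and 0.0198 in Suv39h DKO, and 0.0183 and 0.0169 under UNC0642. Relative to the flanks the change was 0.000403 without and 0.00195 with UNC0642. In the untreated pair 0 member bins were higher by at least 0.01 (3.64% of all bins) and 1 lower (3.73%), namely bin 6, from 0.0212 to 0.00812. In the UNC0642-treated pair 0 were higher (2.98%) and 1 lower (3.86%), namely bin 5, from −0.000131 to −0.0108. Suv39h DKO + UNC against untreated Suv39h WT gave 0 higher (4.53%) and 1 lower (5.27%), again bin 5. By limma 0 of 10 member bins and 0.00% of all bins had an adjusted p under 0.05 (lowest among members 0.386).

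In bin 6, which holds 11 beta genes, the fitted change with SUV39H1/2 loss was −0.0109 (95% confidence interval −0.0183 to −0.00342, limma unadjusted p 0.00862). In bin 4 it was 0.00607 (0.000212 to 0.0119, limma unadjusted p 0.0436). These were the 1 negative (4.85% of all bins) and the 1 positive change (4.76%) among 10 members at an unadjusted p under 0.05. The count of 2 was 0 without Suv39h DKO, 0 without Suv39h WT + UNC, 1 without Suv39h DKO + UNC or either Setdb1 KO library, and 3 without either Setdb1 WT library. Both Suv39h DKO libraries were above both Suv39h WT libraries in bins 4 and 8 (20.6% of all bins) and below in bins 3, 5 and 6 (19.3%). The bin just past the gamma array, with Hdac3, a histone deacetylase, had a fitted change of −0.0112 (limma adjusted p 0.357).

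The difference between SETDB1 loss and SUV39H1/2 loss was tested in the same fit. In 8 of 10 member bins the SETDB1 change was the higher (49.1% of all bins), with a median difference of 0.00706 beside −0.000100 over all bins. Leaving out 1 library gave 6 to 9 of 10 and a median of 0.00427 (without Setdb1 KO) to 0.00982 (without Suv39h DKO + UNC). By limma 0 members and 0.00% of all bins had an adjusted p under 0.05. At an unadjusted p under 0.05, bins 1, 3, 5 and 6 were higher with SETDB1 loss (5.32% of all bins) and 0 were lower (5.66%). These 4 became 2 without Suv39h DKO, Suv39h DKO + UNC or Suv39h WT + UNC. Without Setdb1 WT, 133 of all bins were called higher and 69 lower, and the lowest adjusted p of the members was 0.0585. The largest difference was 0.0202 in bin 5 (95% confidence interval 0.00947 to 0.0310, limma adjusted p 0.276). The lowest was −0.00842 in bin 8 (limma adjusted p 0.581). In bin 6 the difference was 0.0155, made up of 0.00462 for SETDB1 and −0.0109 for SUV39H1/2. In bin 4 it was 0.000537, from 0.00660 and 0.00607 in the same order.

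UNC0642 was given to 4 backgrounds, which gives 4 pairs. In the Setdb1 KO pair 4-OHT was also given for 5 days without and 2 days with UNC0642, so there the 2 differences cannot be told apart. The fitted change was negative in 10 of 10 member bins, with a median of −0.00325 beside 0.0000382 over all bins, and 50.6% of all bins had a positive change. Without Setdb1 WT or Setdb1 WT + UNC, which removes the same pair, the median was −0.00185 and 2 members had a positive change. The largest was −0.00588 in bin 7, the bin of Pcdhb20 to Pcdhb22 (95% confidence interval −0.0116 to −0.000154, limma unadjusted p 0.0452). No member bin passed the test (0 of 10, 0.00% of all bins, lowest adjusted p among members 0.957). Bin 7 alone had an unadjusted p under 0.05 (2.65% of all bins with a negative change, 2.30% with a positive one). This count rose without either Setdb1 KO library and fell without either Suv39h DKO library. The treated library was the lower in 4 of 4 pairs in bins 4 and 10 (5.94% of all bins) and the higher in 4 of 4 in 0 member bins (6.79%).

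The pairs were also read one background at a time. In Setdb1 WT the 10-bin mean went from 0.0229 to 0.0163, and 0 member bins were higher (3.51% of all bins) and 4 lower by at least 0.01 (4.62%), namely bins 1, 3, 5 and 8. Bins 3 and 5 crossed from A into B there (2.45%) and 0 the other way (2.67%). In Setdb1 KO the mean went from 0.0267 to 0.0247, with 0 bins up (0.755%) and 1 down by 0.01 (0.934%), namely bin 2. It went from 0.0197 to 0.0183 in Suv39h WT, with 0 up (2.26%) and 1 down (2.53%), namely bin 7. In Suv39h DKO it went from 0.0198 to 0.0169, with 0 up (3.04%) and 0 down (3.69%). Relative to the flanks the change was −0.00992 in Setdb1 WT, −0.000901 in Setdb1 KO, −0.000448 in Suv39h WT and 0.00110 in Suv39h DKO. With flanks of 0.5 Mb the first was −0.00447. Whether the backgrounds differ in this response was not tested. With the Suv39h libraries alone, 6 of 10 members had a negative fitted change.

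The WT lines give the background between lines. Suv39h WT minus Setdb1 WT was −0.00320 in the mean of the 10 bins and −0.0101 relative to the flanks, or −0.00324 relative to all other bins of the chromosome. Here 0 member bins were higher by at least 0.01 (5.68% of all bins) and 2 lower (6.27%), bin 1 by 0.0167 and bin 8 by 0.0148. The limma contrast of the lines called 87 of all bins (0.363%) and 0 of 10 members (lowest adjusted p 0.232). The 87 were 31 higher and 56 lower in Suv39h WT. Over all bins they became 0 higher and 7 lower without Setdb1 WT, 2 and 9 without Suv39h WT, 2 and 8 without Suv39h WT + UNC, and 53 and 115 without Setdb1 WT + UNC. At an unadjusted p under 0.05, 1 member bin was higher in Suv39h WT (bin 3, 6.71% of all bins) and 3 were lower (bins 1, 4 and 8, 6.75%). Fewer members met this limit when any 1 of the WT libraries, treated or untreated, was left out. The fitted differences were 0.00882 in bin 3 and −0.00938 in bin 8 (limma adjusted p 0.273 and 0.308). In 0 of 10 member bins did all 4 Suv39h libraries lie above (6.57% of all bins) or below (6.50%) all 4 Setdb1 libraries.

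Of 12 protocadherins outside the cluster 10 lie on scored chromosomes, and each was scored as the mean of the bins it overlaps. By that mean 3 were A and 7 B in all 8 libraries, where 44.5% to 46.3% of all bins were A in a library. Pcdh1 and Pcdh12, which lie in the flank past the gamma genes, and Pcdh8 were A in all 8 libraries. Pcdh7, Pcdh9, Pcdh10, Pcdh15, Pcdh17, Pcdh18 and Pcdh20 were B in all 8, with Pcdh15 from −0.0333 to −0.0307 and Pcdh10 from −0.0236 to −0.0148. With SETDB1 loss 1 of the 10 genes, Pcdh10, scored higher in both pairs and 4 lower (25.0% and 29.4% of all bins, as above), and by limma 0 of their 40 bins had an adjusted p under 0.05 (0.00% of all bins) and 0 an unadjusted p under 0.05 (5.16% higher and 3.94% lower over all bins, median change −0.000988).

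The genes for factors that act on the locus were all in A. Of 16 listed genes 12 were scored, among them Ctcf, Rad21, Smc3, Nipbl and Wapl for CTCF, cohesin and its loading and release, Setdb1 with its partners Atf7ip and Trim28, and Smchd1, a repressor of clustered protocadherins. By the mean of the bins each overlaps, they were A in all 8 libraries, from 0.00505 for Stag1 to 0.0740 for Smc3. The bin of Setdb1 itself scored 0.0485 in WT and 0.0422 in KO cells of its line without UNC0642, and 0.0439 and 0.0467 with it. By limma 0 of 22 bins of these genes had an adjusted p under 0.05 with SETDB1 loss (0.00% of all bins) and 1 was higher at an unadjusted p under 0.05 (5.16% of all bins, median change 0.00174).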

How the data were processed

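Compartment scores of 8 mESC Hi-C libraries were analysed. The deposited score was made by the authors: DpnII Hi-C reads were aligned to mm10 with the 4DN Hi-C pipeline, alignments with a mapping quality above 10 were kept, and Juicer Tools gave the first eigenvector of the KR-normalised intrachromosomal map per autosome in 100-kb bins. KR normalisation evens out total contacts per bin. The study states 2 repeats of Hi-C. Which repeat or pool each score set holds is not stated, so p-values rest on the spread between libraries of different treatment.

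Of 24005 bins scored in any library, the 23972 scored in all 8 were used. Genes came from GENCODE vM21 (GRCm38, the mm10 coordinates), and 3 read-through genes with other symbols were left out. GC content came from the GRCm38 sequence. limma 3.58.1 in R 4.3.3 fitted background (4 levels) and UNC0642 to every bin, with 3 residual and 7.24 prior degrees of freedom, a prior SD of 0.00305 and Benjamini-Hochberg adjustment at 0.05. Contrasts of 2 libraries were tabulated with Python 3.11.15 without a test. The limma fit was tested on simulated data with a planted change larger than any fitted in the member bins. That test does not show whether changes of the size seen here would be called.

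All member genes and bins were named, with the highest and lowest change of each limma comparison. Among the other genes, those in the bins next to the cluster, 12 protocadherins outside it and 16 factors of the locus were named. Members, lists and tests were chosen with earlier results of these data known. Alternatives were other scalings, centrings, flank widths, thresholds, limma settings and subsets of libraries. No sequences are shown.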

Additional observations from a re-analysis of the deposited data

How the results depend on the processing

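No paired analysis was possible because each group had 1 library and the labels carry no replicate numbers, as far as pairing by replicate number goes. The fit itself pairs treated and untreated libraries within each background. Without the UNC0642 term, or without background for the UNC0642 comparison, 0 members were called in any comparison. The lowest adjusted p among members was then 0.263 for the lines and 0.332 for SETDB1 loss. The limma counts of called member bins stayed at 0 for all 5 comparisons under every alternative run, apart from SETDB1 loss without Setdb1 WT, so leaving out 1 library gave 0 to 2 called members there. Lowest adjusted p values over the alternatives were 0.0259 to 1.00 for SETDB1 loss, 0.309 to 0.766 for SUV39H1/2 loss, 0.637 to 1.00 for UNC0642, 0.0585 to 0.897 for the difference between the losses and 0.119 to 0.600 for the lines. Bins holding the start of a member gene were the same 10 bins. The median 95% half-width was 0.00759 for a knockout contrast and 0.00537 for UNC0642.

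The 10-bin mean moved with the centring. With the implied chromosome mean added it was 0.0286 and 0.0211 in Setdb1 WT without and with UNC0642, 0.0325 and 0.0307 in Setdb1 KO, 0.0248 and 0.0235 in Suv39h WT, and 0.0242 and 0.0236 in Suv39h DKO. Subtracting it again gave 0.0173, 0.0115, 0.0210, 0.0187, 0.0147, 0.0132, 0.0154 and 0.0101 in the same order. Relative to flanks of 2 Mb the 10 bins lay at −0.0178, −0.0273, −0.0134, −0.0144, −0.0240, −0.0263, −0.0259 and −0.0264. Relative to all other bins of the chromosome the sign turned, to 0.0232, 0.0165, 0.0270, 0.0250, 0.01997, 0.0186, 0.02002 and 0.0171, because chromosome 18 averages 0. With flanks of 0.5 Mb Setdb1 KO + UNC lay at −0.0355, and the changes for SETDB1 loss with UNC0642 and for UNC0642 in Setdb1 WT were 0.00541 and −0.00447. The line difference relative to all other bins was −0.00324.

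Leaving the bin next to the Pcdha genes out of the flanks, an alternative chosen after the scores were seen, gave 0.0141 in place of 0.0125 for SETDB1 loss under UNC0642 and turned the sign of none of the 11 changes relative to the flanks.

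Counts of member bins depended on the size of change asked for. The shares of all bins are not given for the thresholds and scalings below, so these counts cannot be read against a background. At 0.02 there was 1 riser with SETDB1 loss under UNC0642, and 0 bins in the other counts that were above 0 at 0.01. At 0.005, SETDB1 loss gave 5 up without and 7 up with UNC0642, and Setdb1 KO + UNC against Setdb1 WT gave 2 up and 1 down. UNC0642 in Setdb1 KO then gave 3 down, in Suv39h WT 2 up and in Suv39h DKO 4 down. SUV39H1/2 loss gave 3 up and 2 down without UNC0642, and 2 up and 3 down with it. Suv39h DKO + UNC against Suv39h WT gave 4 down, and the lines 1 up and 4 down. At 0.01, subtracting the implied mean gave 2 up with SETDB1 loss under UNC0642, 2 down with SUV39H1/2 loss under UNC0642, 2 down with UNC0642 in Suv39h DKO and 3 down for Suv39h DKO + UNC against Suv39h WT. Adding it gave 0 down for both of the SUV39H1/2 counts, and quantile normalization gave 3 down for Suv39h DKO + UNC against Suv39h WT. The cause of these shifts was not tested.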
